A study of Mus musculus with 10 samples.

Results

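Epithelial-mesenchymal switch genes are the adhesion, cytoskeletal and matrix genes whose levels change when epithelial cells loosen their junctions and become motile, together with the repressors that drive that change. The set described here has 10 members, listed by gene symbol with earlier results of these data known: the epithelial adhesion genes Cdh1 and Epcam, the mesenchymal genes Cdh2, Vim and Fn1, and the repressor genes Snai1, Snai2, Zeb1, Zeb2 and Twist1. All 10 symbols matched an identifier among the 52636 in the count tables.

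Embryonic stem cells grow as an epithelium held together by E-cadherin. During gastrulation, Snail, Zeb and Twist proteins bind E-box sequences in DNA and repress epithelial genes, E-cadherin first among them, while N-cadherin, vimentin and fibronectin rise. Loss of E-cadherin with gain of N-cadherin is known as the cadherin switch.

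The cells were E14 cells, a male line of mouse embryonic stem cells. WT cells were set against CBE-KO cells, which lack a site near the HoxA gene cluster where CTCF, a protein that shapes chromatin loops, binds, with 2 RNA-seq libraries per group that the series describes as biological replicates. Both groups were taken out of medium with LIF and 2 kinase inhibitors and given retinoic acid, a vitamin A derivative that drives these cells out of pluripotency, at 2 µM, as labelled, for 24 h. The labels do not say how many clones the CBE-KO libraries represent, and no library without retinoic acid was analysed here.

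The libraries held 14108038 to 15632960 counts. The groups differed in more than the labelled element. Summed counts of 4 genes on the Y chromosome (Uty, Kdm5d, Eif2s3y and Ddx3y) were 12 and 10 in WT and 2105 and 1875 in CBE-KO, so Y-linked expression at the floor went with the WT label of a male line. The removed element and this difference between the cell populations cannot be told apart in any comparison below. The cells were checked against markers of naive embryonic stem cells, all 8 of which were detected, with a summed level of 3070 and 3095 CPM (reads of a gene relative to the library size, scaled between libraries with edgeR's TMM factors) in WT and 2987 and 3057 CPM in CBE-KO.

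The switch genes did not move as 2 opposed blocks. Of the 10 genes, 9 had enough reads to be tested and 8 passed edgeR's quasi-likelihood test with adjusted p below 0.05, where 43.1% of all 16005 tested genes passed. In CBE-KO, 6 rose (Cdh1, Epcam, Cdh2, Fn1, Snai2 and Twist1; 21.6% of all tested genes rose) and 2 fell (Vim and Snai1; 21.5% fell). With libraries scaled by their totals alone, 6 rose and 1 fell, since Snai1 no longer passed, and the median log2 fold change of all tested genes shifted to 0.11. In DESeq2 5 rose and 1 fell, and neither Snai1 nor Snai2 passed. Snai2 had enough reads for the test in both CBE-KO libraries but in only 1 WT library. Both epithelial adhesion genes and 2 of the 3 mesenchymal genes thus rose together. Levels are not compared between genes, because transcript lengths were not used here. In bulk RNA, fewer cells of a type and less RNA per cell cannot be told apart.

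**Figure D1:**
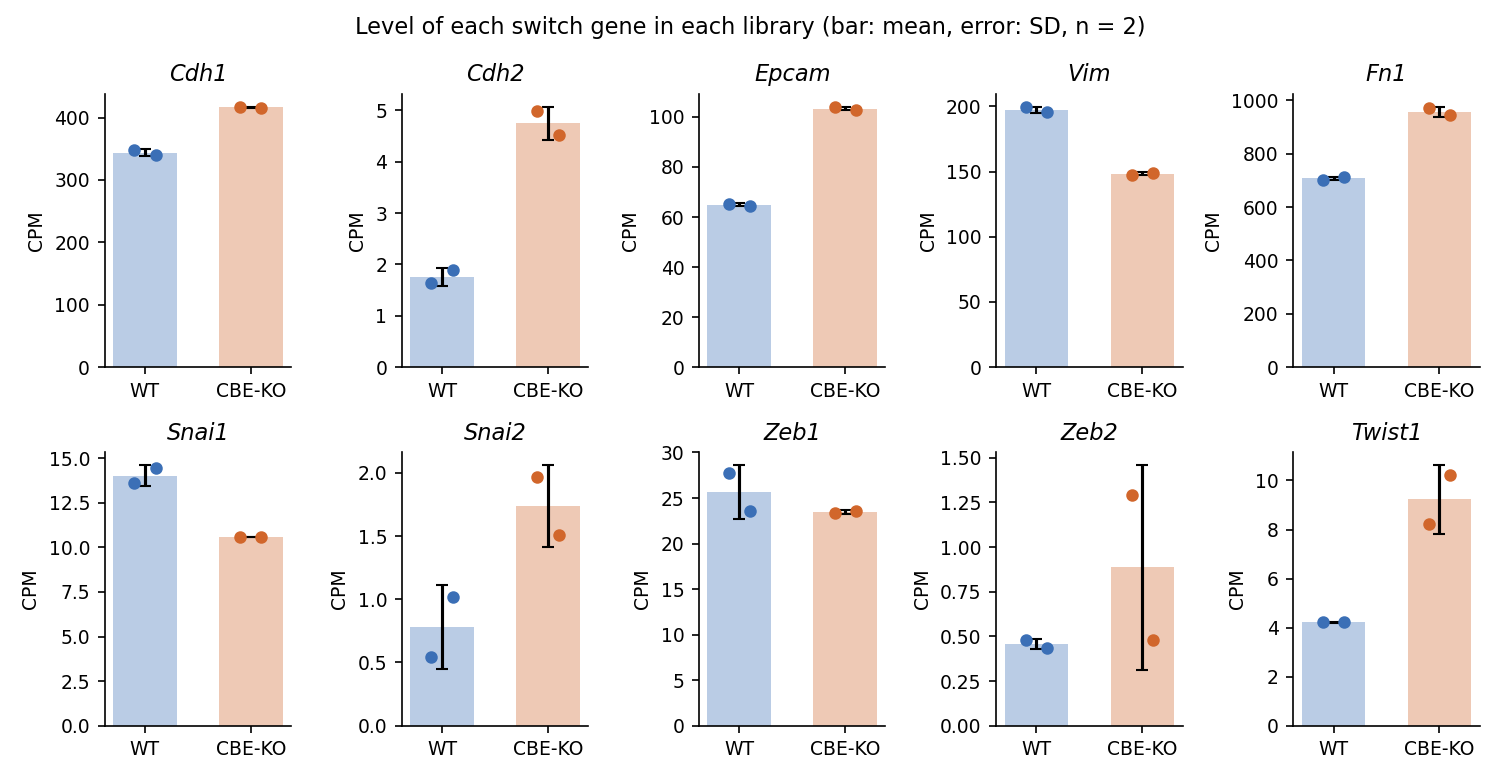
Level of each of the 10 switch genes in CPM (vertical axis, from 0, a separate scale per gene) in WT (blue) and CBE-KO (orange). Points are libraries, bars the means and error bars the SD (n = 2); the groups stand apart for Cdh1 (344 against 417 CPM), Epcam (64.9 against 103 CPM) and Vim (197 against 148 CPM), while the 2 CBE-KO libraries of Zeb2 lie at 1.29 and 0.480 CPM.

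Cdh1 (ENSMUSG00000000303; chr8:106603350-106670247, GRCm38.p6) encodes E-cadherin, the calcium-dependent adhesion protein of adherens junctions. Its level was 348 and 340 CPM in the WT libraries and 417 and 416 CPM in the CBE-KO libraries. Both CBE-KO libraries lay above both WT libraries, by 1.21-fold on average. The log2 fold change was 0.28 with an SE of 0.05 (adjusted p = 9.55e-05 in edgeR). This is a small difference: 50.0% of all tested genes had a larger absolute log2 fold change.

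Epcam (ENSMUSG00000045394; chr17:87635979-87651127) encodes an epithelial cell adhesion molecule that embryonic stem cells also carry. It measured 65.3 and 64.5 CPM in WT and 104 and 103 CPM in CBE-KO, so the groups were far apart relative to the spread within them. The rise was 1.59-fold, with a log2 fold change of 0.67 with an SE of 0.06 (adjusted p = 4.39e-08 in edgeR). Epcam rose more than Cdh1: within each library, the log2 ratio of Epcam to Cdh1 counts, which does not depend on scaling, was -2.41 and -2.40 in WT and -2.01 and -2.02 in CBE-KO.

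Snail and Zeb proteins are known to bind the E-box variant CAGGTG, which reads CACCTG on the opposite strand. The 250 bases before the annotated start site were searched for it on both strands. RefSeq's promoter table (GRCm38.p6) held a window for 5 of the 10 genes: Epcam, Vim, Snai1, Zeb2 and Twist1. The windows of Epcam and Snai1 are shown because they were the ones that held the motif, in a gene that rose and in a gene that fell. Each is written 5′ to 3′ on the gene's own strand, the plus strand in both cases, with the motif in capitals. The Epcam window is chr17:87635729-87635978 and the Snai1 window chr2:167537945-167538194.
Epcam: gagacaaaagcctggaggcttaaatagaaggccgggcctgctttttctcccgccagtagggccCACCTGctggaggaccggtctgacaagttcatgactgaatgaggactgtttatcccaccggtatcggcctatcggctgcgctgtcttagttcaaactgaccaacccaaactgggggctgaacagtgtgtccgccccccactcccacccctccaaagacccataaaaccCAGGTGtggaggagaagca
Snai1: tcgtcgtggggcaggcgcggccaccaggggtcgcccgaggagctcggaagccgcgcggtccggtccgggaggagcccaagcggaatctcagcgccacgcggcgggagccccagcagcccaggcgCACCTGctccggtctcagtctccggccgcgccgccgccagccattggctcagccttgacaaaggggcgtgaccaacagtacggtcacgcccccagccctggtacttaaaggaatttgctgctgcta

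The Epcam window held 2 matches, which began 187 and 19 bases before the start site, and the Snai1 window held 1, which began 126 bases before it. Of 32817 windows of the same length, 17.2% held at least 1 match and 2.07% at least 2. The windows of Vim and Twist1 and the 4 windows of Zeb2 held none of these letters. A match describes the sequence only, since no binding was measured.

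Cdh2 (ENSMUSG00000024304; chr18:16588877-16809246) encodes N-cadherin, the adhesion protein of mesenchymal and neural cells that replaces E-cadherin in the cadherin switch. It had few reads, 24 and 26 in the WT libraries against 81 and 66 in the CBE-KO libraries, which correspond to 1.64 and 1.89 CPM against 4.98 and 4.53 CPM. The groups did not overlap, and the mean rose 2.70-fold. The log2 fold change was 1.43 with an SE of 0.26 (adjusted p = 0.00023 in edgeR), and 4.81% of all tested genes had a larger absolute change.

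Cdh2 therefore rose without a fall of Cdh1. The log2 ratio of Cdh2 to Cdh1 counts was -7.73 and -7.49 in the WT libraries and -6.39 and -6.52 in the CBE-KO libraries. It was 1.16 higher in CBE-KO, a 2.23-fold change. With 2 libraries against 2, an exact two-sided permutation test cannot give less than the p of 0.33 found here.

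Fn1 (ENSMUSG00000026193; chr1:71585473-71653280) encodes fibronectin, a matrix protein that cells grip through integrins and that extraembryonic endoderm also lays down. It measured 703 and 712 CPM in WT and 971 and 944 CPM in CBE-KO. The groups did not overlap, and the log2 fold change was 0.44 with an SE of 0.04 (adjusted p = 4.83e-07 in edgeR), a 1.35-fold rise.

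Vim (ENSMUSG00000026728; chr2:13574311-13582826), which encodes the intermediate filament protein vimentin, was the mesenchymal gene that fell. It measured 199 and 196 CPM in WT and 148 and 149 CPM in CBE-KO. Both CBE-KO libraries lay below both WT libraries, with a log2 fold change of -0.41 with an SE of 0.05 (adjusted p = 2.38e-06 in edgeR). Vim stayed lower and Fn1 higher under each of the 4 scalings, at -0.31 and 0.54 with library totals alone. Within libraries, the log2 ratio of Vim to Fn1 counts was -1.82 and -1.86 in the WT libraries against -2.72 and -2.66 in the CBE-KO libraries, a 1.80-fold difference.

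**Figure D2:**
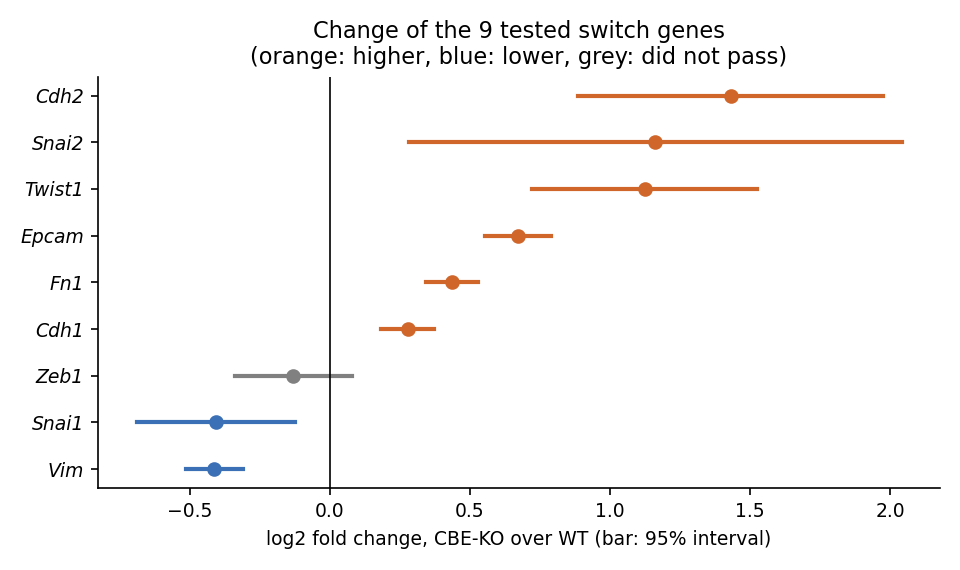
Log2 fold change of CBE-KO over WT (horizontal axis) for the 9 tested switch genes, with 95% intervals from edgeR's test. Orange genes rose, blue genes fell, and grey Zeb1 (-0.13) did not pass; Cdh2 (1.43), Snai2 (1.16) and Twist1 (1.12) lie past 1, and the interval of Snai2 runs from 0.28 to 2.04.

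Among the repressors, Twist1 (ENSMUSG00000035799; chr12:33957671-33959831), a basic helix-loop-helix factor of mesoderm and neural crest, rose with the smallest p of the 4 that were tested. It measured 4.24 and 4.21 CPM in WT and 8.24 and 10.2 CPM in CBE-KO, from 62 and 58 counts against 134 and 149. The groups did not overlap, although the CBE-KO libraries differed from each other more than the WT libraries did. The mean was 2.19-fold higher, with a log2 fold change of 1.12 with an SE of 0.19 (adjusted p = 0.000131 in edgeR).

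The 2 Snail genes, which encode zinc-finger repressors of E-cadherin, moved in opposite directions. Snai1 (ENSMUSG00000042821; chr2:167538195-167542814), the Snail gene of mouse gastrulation, measured 13.6 and 14.4 CPM in WT and 10.6 and 10.6 CPM in CBE-KO. Its groups did not overlap, and it fell, with a log2 fold change of -0.41 with an SE of 0.13 (adjusted p = 0.021 in edgeR). Snai2 (ENSMUSG00000022676; chr16:14705852-14709395), also known as Slug, measured 0.547 and 1.02 CPM in WT and 1.97 and 1.51 CPM in CBE-KO. These levels rest on 8 and 14 counts against 32 and 22. The groups did not overlap, and the log2 fold change was 1.16 with an SE of 0.42 (adjusted p = 0.032 in edgeR). Both CBE-KO libraries of Snai2 but only 1 WT library reached the minimum of the filter on low counts, which asks for 2 libraries. Its WT libraries alone would not have admitted Snai2 to the test.

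Both Snail calls were fragile, in that neither passed in DESeq2 (adjusted p = 0.112 for Snai1 and 0.19 for Snai2). Snai1 also failed to pass with library totals alone (adjusted p = 0.0803), without WT replicate 2 (0.0768), without CBE-KO replicate 1 (0.0579) and without CBE-KO replicate 2 (0.0566). Snai2 failed to pass without WT replicate 1 (log2 fold change 0.78, adjusted p = 0.249) and without CBE-KO replicate 1 (0.95, adjusted p = 0.237). The signs held in every one of these fits, which reuse the same libraries. Since the groups of neither gene overlapped, leaving out 1 library could hardly have reversed a sign, so this is no separate support. The log2 ratio of Snai2 to Snai1 counts was -4.64 and -3.83 in WT and -2.43 and -2.81 in CBE-KO, without overlap. That of Twist1 to Snai1 was -1.68 and -1.78 in WT and -0.36 and -0.048 in CBE-KO.

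The 2 Zeb genes encode large zinc-finger and homeodomain repressors. Zeb1 (ENSMUSG00000024238; chr18:5591327-5775468) measured 27.7 and 23.5 CPM in WT and 23.3 and 23.6 CPM in CBE-KO. The groups overlapped, and the difference did not pass (log2 fold change -0.13, 95% interval -0.34 to 0.081; edgeR adjusted p = 0.318). Zeb2 (ENSMUSG00000026872; chr2:44983512-45117442) was read 7 and 6 times in the WT libraries and 21 and 7 times in the CBE-KO libraries, too few for the filter on low counts. A single CBE-KO library stood above the rest. In a fit without that filter, the log2 fold change of Zeb2 was 0.96, with a 95% interval of -0.12 to 2.04 (edgeR adjusted p = 0.245).

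**Figure D3:**
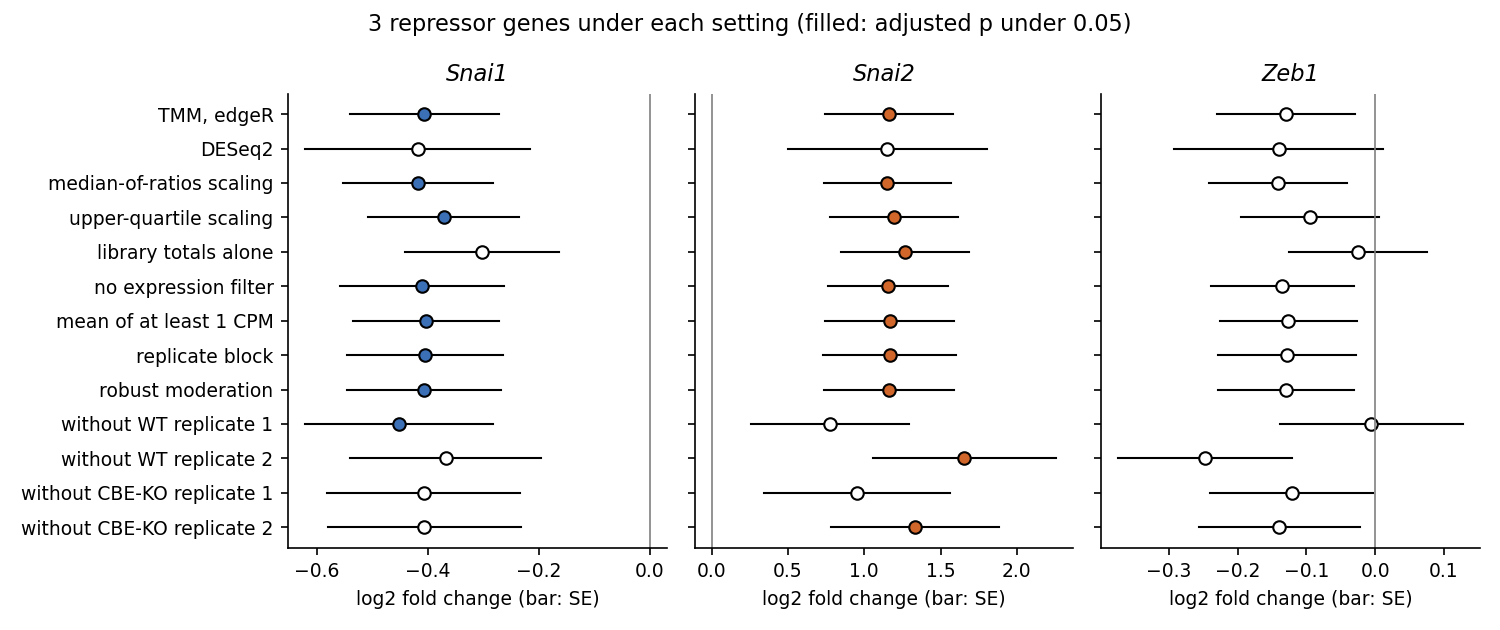
Log2 fold change of CBE-KO over WT with its SE (horizontal axes, a separate scale per gene) for Snai1, Snai2 and Zeb1 under each scaling, filter, test and left-out library (rows). Filled points passed at an adjusted p under 0.05; Snai1 stays between -0.45 and -0.30, Snai2 between 0.78 and 1.66 and Zeb1 between -0.25 and -0.0056, with open points for Snai1 and Snai2 in DESeq2.

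Other junction genes of epithelia were compared from a list of 28, of which 27 were tested. In CBE-KO 16 rose, 3 fell and 8 did not pass, and the median log2 fold change was 0.34, beside 0.0067 over all tested genes. The counts of this list and of all lists below stand beside 43.1% of all tested genes that passed, 21.6% higher and 21.5% lower. Dsp, for desmoplakin, which ties keratin to desmosomes, rose from 13.9 ± 2.33 to 44.2 ± 2.55 CPM (SD, n = 2 each). Dsc2, for a desmosomal cadherin, rose from 9.21 ± 1.14 to 20.5 ± 0.157 CPM. Of the other desmosome genes listed, Dsg2, Pkp2 and Pkp3 did not pass (log2 fold changes 0.12, 0.080 and 0.25), and Jup fell. Ocln, for the tight junction protein occludin, had a log2 fold change of 1.65, and Crb3, for an apical polarity protein, one of 1.18. Pard6b and Jup were among the 3 that fell, with log2 fold changes of -0.62 and -0.38. Pard6b, Jup, Dsg2, Pkp2 and Pkp3 were named after their values were seen. DESeq2 passed 12 of the 27 genes, 9 higher and 3 lower.

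Regulators of the epithelial state were mixed, with 5 of 12 tested genes higher and 2 lower (5 and 1 with library totals alone), and a median log2 fold change of 0.098. Grhl2, for a grainyhead factor that activates Cdh1, fell from 7.89 ± 0.137 to 2.94 ± 0.186 CPM (SD, n = 2 each; log2 fold change -1.42). Elf3, for an epithelial ETS factor, rose from 87.0 ± 2.86 to 138 ± 1.49 CPM. Spint1 and Spint2, for membrane inhibitors of serine proteases, rose by log2 fold changes of 0.32 and 0.13. The change of Spint2 did not pass under 6 alternatives, among them DESeq2 (adjusted p = 0.156), the replicate block (0.0585) and the fits without WT replicate 2 (0.117) or CBE-KO replicate 2 (0.397). In DESeq2, and likewise in edgeR without CBE-KO replicate 2, 3 genes of this list passed in place of 7.

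The other cadherins and their catenin partners gave a median log2 fold change of -0.20 over 7 tested genes, of which 1 rose and 3 fell (1 and 1 with library totals alone, and 2 lower in DESeq2). Cdh4, for R-cadherin, fell from 14.0 ± 2.64 to 3.63 ± 0.692 CPM (SD, n = 2 each), opposite to its close relative Cdh2. Cdh3, for P-cadherin, had a log2 fold change of -0.33 and Ctnna1, for the catenin that links cadherins to actin, one of -0.21. With library totals alone neither gene passed (0.121 and 0.058 as adjusted p), nor did Cdh3 in DESeq2 (0.123) or without WT replicate 1 (0.101) or CBE-KO replicate 2 (0.198). Ctnnb1, for beta-catenin, did not pass (log2 fold change 0.013, edgeR adjusted p = 0.86).

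Mesenchymal effector genes came from a list of 35, of which 27 were tested. In CBE-KO 15 rose, 3 fell and 9 did not pass, with a median log2 fold change of 0.24. The 15 include Col5a2, which entered the test through its CBE-KO libraries alone, as did Cd44, which did not pass. Mmp2, for a matrix-degrading protease, went from 10.0 ± 1.92 to 22.1 ± 0.65 CPM (SD, n = 2 each). Fbn1, for the microfibril protein fibrillin, and Col1a1, for a chain of type I collagen, had log2 fold changes of 0.89 and 0.88. Cnn2, for an actin-binding calponin, fell as Vim did, from 79.7 ± 2.82 to 44.1 ± 0.332 CPM. Acta2, Lox, Postn, S100a4 and Tnc had at most 3 counts in every library.

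Of 15 other transcription factors tied to the switch, 10 rose and 1 fell, with a median log2 fold change of 0.72. Id2, for a factor without a DNA-binding domain that blocks basic helix-loop-helix proteins such as Twist1, rose from 22.4 ± 2.60 to 78.2 ± 5.71 CPM (SD, n = 2 each). Sox4, for a high-mobility-group factor, rose from 12.1 ± 0.417 to 37.0 ± 0.38 CPM. Tcf4, for a helix-loop-helix partner of Twist proteins, had a log2 fold change of 0.85. Id1, Id3 and Id4 were also among the 10 that rose (0.44, 0.72 and 0.95) and were named after their values were seen. The tally thus pools genes of opposite action, such as Id2 and Tcf4, and is not a count of drivers of the switch. Hmga2, for a chromatin-binding protein, was the gene that fell (log2 fold change -0.61) and was named after its value was seen. Twist2 and Prrx1 had no counts in any library.

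Of 13 tested genes for corepressors that Snail and Zeb proteins recruit, 1 rose, 4 fell and 8 did not pass, with a median log2 fold change of 0.017. The split was 3 higher and 4 lower with upper-quartile scaling and 6 higher and 3 lower with library totals alone. Ctbp2, for a partner of Zeb proteins, fell from 106 ± 1.26 to 58.4 ± 3.12 CPM (SD, n = 2 each). Prmt5, Ajuba and Suz12 had log2 fold changes of -0.39, -0.27 and -0.22, and Suz12 did not pass with library totals alone (adjusted p = 0.0608).

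The signals that start the switch were represented by 15 tested ligands, receptors and Smad genes, of which 8 rose and 4 fell, with a median log2 fold change of 0.18. The 8 include Fgf8 and Met, which entered the test through their CBE-KO libraries alone. Their calls are therefore no support for a rise of the list, and both were named after their values were seen. DESeq2 passed 7 of them, 4 higher and 3 lower. Smad3, for a transducer of TGF-beta signals, rose from 6.32 ± 1.02 to 14.7 ± 0.33 CPM (SD, n = 2 each). The Smad genes did not move together: Smad2 fell from 63.1 ± 4.03 to 51.8 ± 0.604 CPM. Smad7 also fell and Smad4 rose (log2 fold changes -0.19 and 0.18). Smad2, Smad4 and Smad7 were named after their values were seen. Fgfr2, for a fibroblast growth factor receptor, had a log2 fold change of 0.56, and the ligand genes Bmp4 and Fgf4 had -0.67 and -0.34.

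**Figure D4:**
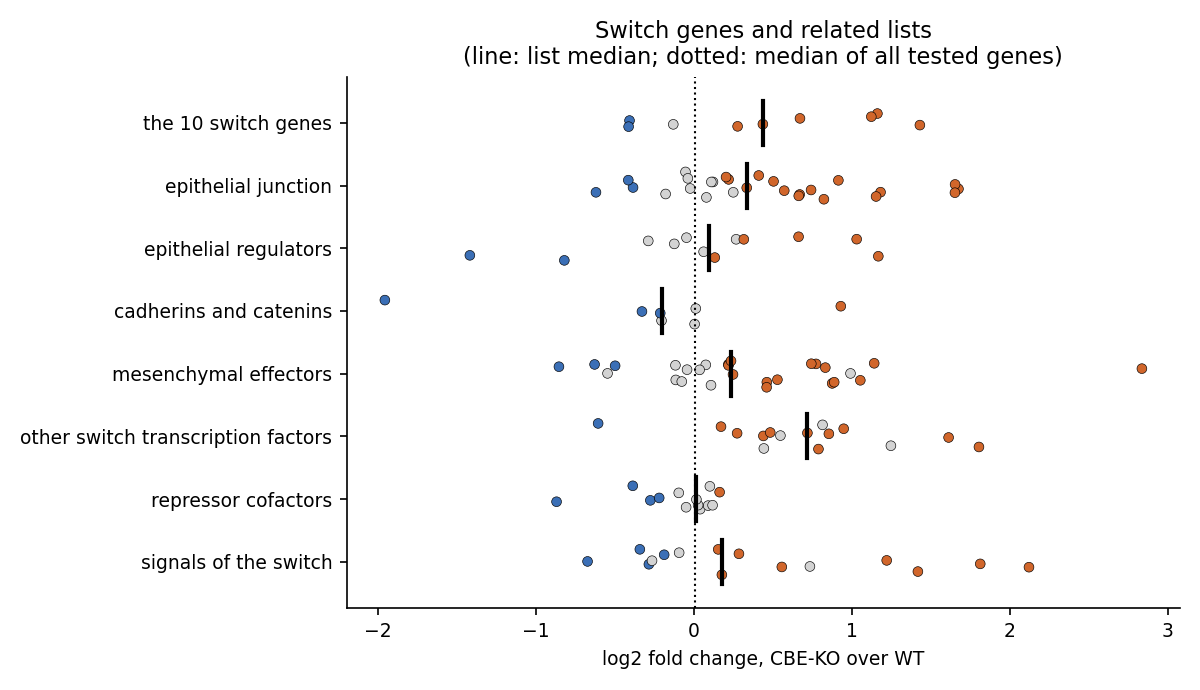
Log2 fold change of CBE-KO over WT (horizontal axis) for the tested genes of the switch set and 7 related lists (rows), each point a gene, with orange for genes that rose, blue for genes that fell and grey for genes that did not pass. Black lines are list medians, 0.44 for the switch genes and 0.72 for the other switch transcription factors, and the dotted line is the median of all tested genes, 0.0067.

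Markers of other cell types that could be present were measured beside the switch genes. Of 11 markers of extraembryonic endoderm, a cell type that expresses Fn1, 7 rose, none fell and 4 did not pass. Sox7, Dab2, Gata4 and Lama1 were among those that rose, with log2 fold changes of 0.81, 0.77, 0.72 and 0.55. Gata6, Sox17, Pdgfra and Sparc did not pass (0.0087, 0.20, -0.042 and -0.076) and were named after their values were seen. Dab2 did not pass in DESeq2 (adjusted p = 0.0548) or without CBE-KO replicate 1 (0.0816). The summed level of the 11 markers was 455 and 470 CPM in WT and 513 and 520 CPM in CBE-KO. Of 7 listed neuroectoderm markers 6 were tested, where Map2 and Sox1 were among 4 that rose and Tubb3 was the 1 that fell (Map2 had an adjusted p of 0.0564 in DESeq2), and the summed level was 91.2 to 101 CPM in WT and 76.4 to 77.9 CPM in CBE-KO. Tubb3 carried that fall, since without it the sum was 26.6 and 26.9 CPM in WT and 36.1 and 36.8 CPM in CBE-KO. The remaining risers, named after their values were seen, were Pax6 (10 and 9 counts in the WT libraries, 40 and 41 in the CBE-KO libraries) and Zfp521 (4 and 4, then 54 and 53). Both entered the test through CBE-KO alone. The part of these markers in the rises of Fn1 and Cdh2 was not tested.

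Of 8 fibroblast markers, 3 were tested, and Col1a1 and Pdgfrb rose. Dcn, Lum and Postn, which define fibroblasts, had no counts in any library. Of the other untested markers, Col1a2 had 0 and 1 counts in the WT libraries against 12 and 8 in the CBE-KO libraries, and Col3a1 had 0 and 0 against 8 and 1. The summed level of the 8 was 24.7 and 27.8 CPM in WT and 40.1 and 42.4 CPM in CBE-KO. Of 7 mesoderm markers 6 were tested and 1 rose, Kdr, which was named after its value was seen. Kdr entered the test through its CBE-KO libraries alone, and it missed the threshold in DESeq2 (adjusted p = 0.163) and without WT replicate 1 (0.115), WT replicate 2 (0.0908) or CBE-KO replicate 2 (0.287). The summed mesoderm level was 17.7 to 18.5 CPM in WT and 19.7 to 20.4 CPM in CBE-KO. Among 5 neural crest markers, 2 of 4 tested rose and Foxd3 fell (log2 fold change -0.85), which alone passed in DESeq2. Tfap2b had no counts in any library, and the summed neural crest level was 47.8 to 50.0 CPM in WT and 31.2 to 35.7 CPM in CBE-KO. Without Foxd3 that sum was 6.90 to 6.97 CPM in WT and 8.64 to 11.4 CPM in CBE-KO, and the 2 that rose were Ets1 and Tfap2a (log2 fold changes 1.04 and 0.74), named after their values were seen. Of 5 trophoblast markers 4 were tested and Tfap2c fell (-0.74), with summed levels of 25.9 to 26.0 CPM in WT and 16.3 to 17.6 CPM in CBE-KO. Tfap2c alone made up most of that sum, at 21.0 and 21.1 CPM in WT and 12.4 and 12.9 CPM in CBE-KO. The other 3 tested markers did not pass, so the fall of the sum was that of 1 gene.

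Markers of the pluripotent states themselves were mixed. Of the 8 naive markers, Nanog and Tfcp2l1 rose by log2 fold changes of 0.15 and 0.16, and Klf4 and Zfp42 fell, with -0.49 and -0.42 (4 rose and 2 fell with library totals alone). Nanog did not pass without CBE-KO replicate 1 or 2 (adjusted p = 0.0519 and 0.146), nor Tfcp2l1 in DESeq2 (0.0915), without WT replicate 1 (0.318) or without CBE-KO replicate 1 (0.136). Of 5 epiblast markers 4 were tested: Sox3 was among 2 that rose (log2 fold change 1.44), and Dnmt3b and Pou3f1 fell (-1.13 and -1.10). The part of these states in the changes of the switch genes was not tested.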

How the data were processed

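RNA-seq of 4 libraries was used, and 6 Capture-C samples of the series were not analysed here. The deposited values are raw whole-number counts per Ensembl gene identifier, with 1 table per library, as the values show. The submitters' processing notes name HISAT2 2.1.0, HTSeq 0.9.1, DESeq2 1.18.1, Bowtie2 2.3.1 and the build mm10, without saying which made these tables. Use of strand and treatment of reads with several matches are not given in the sources used here, so reads of overlapping genes cannot be told apart. Among the members this concerns Zeb1, whose span holds Gm10125 (3, 4, 8 and 12 counts in the 2 WT and 2 CBE-KO libraries), and Zeb2, whose span holds Zeb2os (no counts in any library). Of 52636 identifiers, 52403 matched a symbol. Gene positions come from RefSeq on GRCm38.p6, the assembly that mm10 names.

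Genes were kept with filterByExpr at its defaults (at least 10 counts at the median depth, in at least 2 libraries), which left 16005. Of 116 tested genes of the related lists, 5 had no WT library at the minimum of this filter, and 3 of them were called higher. In Marveld3 (junction list), Ovol2 (epithelial regulators), Lef1 and Tgfb3 a single WT library reached it, so WT alone would not have admitted them either. Marveld3 and Ovol2 were called higher. Differences were tested with edgeR 4.0.16 in R 4.3.3 by glmQLFit and glmQLFTest after TMM scaling, without covariates, two-sided, with Benjamini-Hochberg adjustment over all tested genes. A standard error is the absolute log2 fold change over the square root of F. CPM are TMM-scaled, and 3 counts correspond to 0.184 to 0.218 CPM. Floors cover counting error only. The scripts were tested on simulated counts in which few genes changed, as many up as down. In these data 43.1% of tested genes passed, so that run does not bear on the choice of scaling.

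The members and lists were chosen with earlier results of these data known. All members are named, and from each list the up to 4 genes with the largest absolute log2 fold change that passed, had groups without overlap and averaged 5 CPM or more in the group with the higher level. The values of 2 list genes are not reported here. Alternatives were DESeq2 1.42.0, median-of-ratios, upper-quartile and total scaling, no filter, a filter at 1 CPM on average, a replicate block, robust moderation, thresholds of 0.01 on the adjusted p and of 1 on the absolute log2 fold change, and each library left out.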

Additional observations from a re-analysis of the deposited data

How the results depend on the processing

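Of the 8 switch genes that passed, 6 (Cdh1, Cdh2, Epcam, Fn1, Twist1 and Vim) kept their direction and passed under each of 12 alternatives, with an adjusted p of at most 0.00264. Snai1 lost its call under 5 of the 12 and Snai2 under 3. No switch gene changed sign under any of them. For genes whose groups do not overlap, leaving out 1 library could hardly have changed it. The number that passed, 8, was 6 in DESeq2 and at an adjusted p under 0.01, 7 with library totals alone, and 6 to 7 without 1 library. It was 3 (Cdh2, Snai2 and Twist1) when the absolute log2 fold change also had to reach 1. Over all tested genes, 6895 passed; DESeq2 passed 4577, a minimum absolute log2 fold change of 1 left 1383, and leaving out 1 library gave 5492 to 6420. What separates the 2 tools here was not tested. Of the genes that passed, 50.2% were higher with TMM and 67.0% with library totals alone. Fits without 1 library leave a single library in a group, which is assumed to vary like the other group.

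Nothing in the labels ties WT and CBE-KO libraries of the same number to a shared preparation, and their deviations from the means of the groups correlated at 0.0346. With the replicate block, 8 switch genes and 7027 genes in all passed, and no call of a switch gene changed. The log2 ratio of Cdh2 to Cdh1 counts differed between groups by 1.16, a value that a replicate block in 2 balanced groups cannot change, and by 1.04 to 1.27 without 1 library. Counts were lowest for Zeb2, Snai2 and Cdh2, with at most 21, 32 and 81 counts in a library.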

Other observations

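A few low-count genes of the related lists fell outside the naming rule and were chosen after their values were seen. Col5a2 and Met entered the test through their CBE-KO libraries alone, so their counts are given without a test. Col5a2, for a chain of the fibrillar collagen type V, was counted 5 and 8 times in the WT libraries and 47 and 55 times in the CBE-KO libraries. Its partner chain Col5a1 did not pass, with a log2 fold change of 0.076. Tgfbr2, for the type II receptor of TGF-beta ligands, had 19 and 12 reads in the WT libraries against 60 and 86 in the CBE-KO libraries (log2 fold change 2.12, edgeR adjusted p = 5.06e-05). Met, for the receptor of hepatocyte growth factor, had 9 and 8 reads against 25 and 40. Hgf, the gene of its ligand, had no counts in any library.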
